A study of Mus musculus with 5 samples.

Results

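Bile acid synthesis and transport genes were followed in hepatocyte nuclei of chow and MASH livers by single-nucleus RNA-seq. The set held 10 genes, taken by symbol from the 32285 genes of the count matrices: the synthesis enzymes Cyp7a1, Cyp8b1, Cyp27a1 and Cyp7b1, the conjugation enzymes Baat and Slc27a5, the nuclear receptors Nr0b2 and Nr1h4, and the transporters Slc10a1 and Abcb11. All 10 passed the filter on low counts. Wild-type male mice of the C57BL6/J strain received regular chow (3 libraries) or a MASH diet (2 libraries) for 5 months from an age of 10 to 12 weeks. The MASH diet supplied 40% of its energy as fat and 20% as fructose, contained 2% cholesterol, and is used to bring on metabolic dysfunction-associated steatohepatitis, a fatty liver disease with inflammation and injury. No transgene or deletion was present in any group, and nothing in the labels tells if 1 animal or several went into a library, so that p-values measure only the spread between libraries. UMI counts (unique molecular identifiers, 1 per captured RNA molecule) were summed per library over hepatocyte nuclei, defined as nuclei with at least 2000 UMIs and at least 1 UMI of Hnf4a, the hepatocyte transcription factor. This gave 4222, 6744 and 7006 nuclei in Chow1, Chow2 and Chow3, and 2684 and 2611 in MASH1 and MASH2, or 23267 of 57080 nuclei in all.

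Hepatocytes make bile acids from cholesterol and secrete them into bile, which carries off sterol and allows fat to be absorbed in the gut. In the classical route Cyp7a1 sets the pace and Cyp8b1 fixes how much cholic acid is made, whereas the alternative route starts with Cyp27a1 and continues with Cyp7b1. Bile acids activate Nr1h4 (the receptor FXR), which induces Nr0b2 (the repressor SHP) and the export pump Abcb11 and represses Cyp7a1, and the classical enzymes lie mainly around the central vein of the lobule.

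The gate was checked on markers of hepatocytes and of the other liver cell types. None of 7 hepatocyte markers was at 0 in any library, and their summed level was 9595 to 15087 CPM (UMIs of a gene scaled to a common library total) in chow and 5272 to 5974 CPM in MASH. All 6 markers of stellate cells were present in every library, and their sum was 45.0 to 71.0 CPM in chow and 177 to 225 CPM in MASH. Macrophage markers summed to 24.9 to 38.6 CPM in chow and 53.1 to 137 CPM in MASH, with Marco at 0 in MASH2. Cholangiocyte markers summed to 26.6 to 67.1 CPM in chow and 83.0 to 118 CPM in MASH, with Krt19 at 0 in Chow2 and Cftr at 0 in Chow1 and Chow2. Endothelial markers overlapped between the diets (50.6 to 161 CPM and 117 to 143 CPM), and those of T and B cells stayed between 0.224 and 6.74 CPM, with Ms4a1 and Pax5 at 0 in Chow2. Of nuclei with at least 2000 UMIs, 64.6% to 78.7% carried an Hnf4a UMI in chow and 43.4% to 45.5% in MASH, and the median depth of the gated nuclei was 3871.5 to 5019.5 UMIs in chow and 4870.5 to 5475 UMIs in MASH. The part of these differences in the results below was not tested, other than by repeating the comparison in narrower and wider gates. Hepatocyte nuclei with a barcode also seen in another library numbered 24 to 93 per library.

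Promoter sequence was found in RefSeq (GRCm38.p6) for 6 of the 10 genes, and Cyp7a1, Cyp7b1, Baat and Slc27a5 were not among them. The 2 stretches below are shown because they hold sites of the receptor families that act on these genes; each is the 100 bases before the transcription start on the minus strand, 5′ to 3′, at chr9:121916306-121916405 for Cyp8b1 and chr2:69342617-69342716 for Abcb11. Capitals mark motif matches.
Cyp8b1: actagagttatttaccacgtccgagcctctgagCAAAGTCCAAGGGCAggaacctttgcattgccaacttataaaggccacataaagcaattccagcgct
Abcb11: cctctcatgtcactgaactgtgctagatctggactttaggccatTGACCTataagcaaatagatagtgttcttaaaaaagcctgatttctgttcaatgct
Both strands of the 250 bases upstream of each start were searched for 3 motifs. In Cyp8b1 the motif CAAAGTCCA, of the kind bound by HNF4A, lay at positions -67 to -59 and overlapped CAAGGNCA, of the kind bound by NR5A2, at -60 to -53. These motifs occurred in 0.384% and 5.53% of 32851 promoter windows. In Abcb11 the nuclear receptor motif AGGTCA lay on the opposite strand at -56 to -51, where the printed strand reads TGACCT, and 14.0% of all windows held this motif. Nr0b2 had a CAAGGNCA match at -201 to -194, and Slc10a1 an AGGTCA match at -87 to -82 of the second of its 2 annotated starts. Nr1h4 had an AGGTCA match at -214 to -209 of a start inside the gene. That window lay at 89506609 to 89506908, and the gene begins at 89533585 on the minus strand. Cyp27a1 had no match in its window. These matches describe the letters only and no binding was measured.

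To learn how the bile acid genes differed between the diets, the summed counts were compared with edgeR's quasi-likelihood test, with Benjamini-Hochberg adjustment over 15414 genes. Cyp7b1 and Slc27a5 fell in MASH, no member rose, and 8 did not pass the threshold of 0.05 on the adjusted p, where 13.7% of all genes tested passed in either direction and 4.48% as lower. An unadjusted p under 0.05 was found for 7 members and for 33.5% of all genes. DESeq2 called 5 members, all of them lower, and 23.3% of all genes, or 10.8% as lower. The log2 difference, MASH minus chow, was below 0 for 9 members and above 0 for Cyp7a1, and its median over the members was -0.86, against 0.00101 over all genes tested. A value below 0 was not particular to the members. Hnf4a stood at -1.10, and the summed hepatocyte markers above were lower in MASH as well. In 8 members the TMM-scaled libraries of the diets did not overlap, 7 of them lower in MASH. Such separation was common in these data, at 54.3% of all genes in either direction and 24.2% as lower. With library totals it was seen in 4 members, Cyp7a1 (higher in MASH) and Cyp7b1, Nr0b2 and Slc27a5 (lower), and in 53.7% of all genes in either direction and 12.6% as lower, so that for Cyp8b1, Cyp27a1, Slc10a1 and Abcb11 it depended on the scaling. Scaling by library totals in place of TMM factors moved the median of all genes to 0.33 on the log2 scale, and member differences under that scaling are to be read against it.

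**Figure D1:**
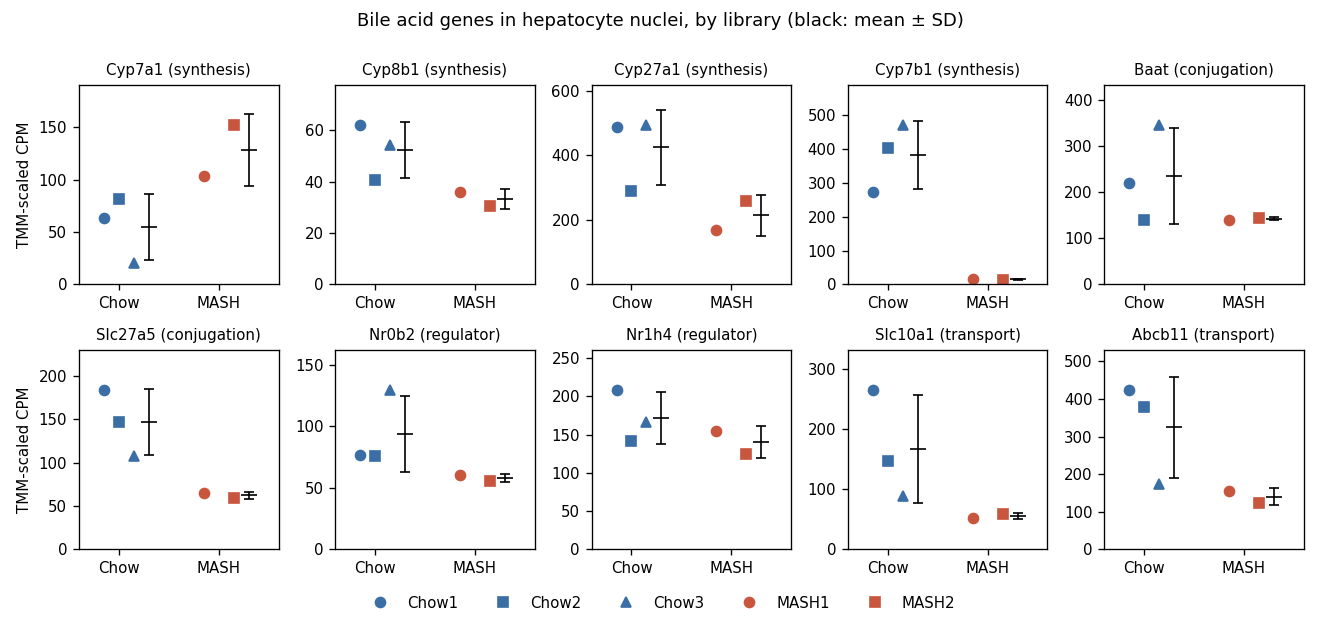
TMM-scaled CPM (CPM after edgeR's composition scaling) of each of the 10 genes in hepatocyte nuclei, 1 point per library, with the mean ± SD in black (n = 3 chow, n = 2 MASH). Cyp7b1 lies between 274 and 471 in chow and at 13.9 and 15.4 in MASH, and Cyp7a1 is the gene whose MASH points lie above all chow points.

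Among the synthesis enzymes, Cyp7b1 showed the greatest difference. Cyp7b1 (ENSMUSG00000039519, GRCm38 chromosome 3, 18071950 to 18243338, minus strand) encodes the oxysterol 7-alpha-hydroxylase of the alternative route. It was read at 7134, 11447 and 14004 UMIs in Chow1, Chow2 and Chow3 and at 258 and 289 UMIs in MASH1 and MASH2, or 274, 402 and 471 against 15.4 and 13.9 TMM-scaled CPM. The means were 382 ± 100.3 CPM (SD, n = 3) in chow and 14.6 ± 1.06 CPM (SD, n = 2) in MASH, a 26.1-fold fall with a log2 difference of -4.71 (SE 0.38, edgeR adjusted p = 0.00185). Both MASH libraries lay far below every chow library. The gene passed the threshold in each of 18 alternatives, with log2 differences from -4.90 to -4.34 and adjusted p up to 0.0263.

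Cyp7a1, the rate-limiting enzyme of the classical route (ENSMUSG00000028240, chromosome 4, 6265612 to 6275633, minus strand), had the opposite sign. Its level was 63.3, 81.1 and 20.3 TMM-scaled CPM in Chow1, Chow2 and Chow3 and 104 and 152 in MASH1 and MASH2, from 1650, 2308, 603, 1741 and 3167 UMIs. The MASH values both exceeded every chow value, and the log2 difference of 1.22 (SE 0.51) did not pass the threshold (edgeR adjusted p = 0.139). The value stayed above 0 in all 18 alternatives, between 0.77 and 1.56, and passed the threshold in none. Chow3 was the low library, and without it the difference was 0.77. Chow3 also stood apart for Dbp, a clock-controlled transcription factor chosen here after its values were seen, at 11.4 CPM against 73.4 to 124 CPM in the other libraries; the part of this library's difference in the Cyp7a1 value was not tested.

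Cyp8b1, the sterol 12-alpha-hydroxylase (ENSMUSG00000050445, chromosome 9, 121914356 to 121916305, minus strand), was at 62.2, 40.7 and 54.3 TMM-scaled CPM in chow and at 36.0 and 30.4 in MASH. The libraries did not overlap and the log2 difference was -0.66 (SE 0.26, edgeR adjusted p = 0.126). Cyp27a1, the mitochondrial sterol 27-hydroxylase (ENSMUSG00000026170, chromosome 1, 74713574 to 74737892, plus strand), was at 489, 290 and 494 CPM in chow and at 169 and 258 CPM in MASH. Here too the MASH libraries were the lowest, with a log2 difference of -0.99 (SE 0.37, edgeR adjusted p = 0.106). Cyp27a1 passed with DESeq2 (adjusted p = 0.0318) and with Storey's q-values (0.0498), whereas Cyp8b1 passed under no alternative.

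Slc27a5 and Baat add taurine or glycine to bile acids, Slc27a5 by making the coenzyme A ester and Baat by transferring the amino acid. Slc27a5 (ENSMUSG00000030382, chromosome 7, 12988346 to 12998192, minus strand) was at 184, 147 and 108 TMM-scaled CPM in chow and at 64.9 and 59.6 in MASH. It fell 2.35-fold, from 146 ± 38.0 CPM (SD, n = 3) to 62.3 ± 3.69 CPM (SD, n = 2), a log2 difference of -1.23 (SE 0.30, edgeR adjusted p = 0.0345). Every MASH value lay below every chow value. The call was lost without Chow2 (adjusted p = 0.0733), without MASH1 (0.232), without MASH2 (0.284) and with library totals in place of TMM (log2 difference -0.95, adjusted p = 0.137). Baat (ENSMUSG00000039653, chromosome 4, 49489422 to 49506557, minus strand) was at 219, 141 and 346 CPM in chow and at 140 and 145 CPM in MASH. MASH2 lay above Chow2, so the groups overlapped, and the log2 difference of -0.72 (SE 0.39) did not pass (edgeR adjusted p = 0.231).

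Neither receptor gene passed the threshold. Nr1h4 (ENSMUSG00000047638, chromosome 10, 89454234 to 89533585, minus strand) was at 209, 141 and 167 TMM-scaled CPM in chow and at 155 and 125 in MASH. The groups overlapped and the log2 difference was -0.30 (SE 0.28, edgeR adjusted p = 0.485), with a value of 0.0023 under library totals. Nr0b2, the repressor induced by Nr1h4 (ENSMUSG00000037583, chromosome 4, 133553376 to 133556536, plus strand), was at 76.6, 75.7 and 130 CPM in chow and at 60.5 and 55.9 CPM in MASH. Its groups did not overlap, Chow3 being the highest library, and its log2 difference was -0.69 (SE 0.31, edgeR adjusted p = 0.158).

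Both transporter genes were below chow in MASH without passing the threshold. Slc10a1, which takes up bile acids from blood with sodium (ENSMUSG00000021135, chromosome 12, 80953183 to 80968705, minus strand), was at 265, 147 and 88.0 TMM-scaled CPM in chow and at 52.3 and 58.4 in MASH. Chow3 was the lowest chow library and lay above both MASH libraries on this scale, but on library totals it was at 66.5 CPM, below MASH2 at 70.0 CPM, and the log2 difference was -1.59 (SE 0.46, edgeR adjusted p = 0.0560). Abcb11, the bile salt export pump of the canalicular membrane (ENSMUSG00000027048, chromosome 2, 69238282 to 69342616, minus strand, with genes on the opposite strand inside it), was at 425, 378 and 173 CPM in chow and at 156 and 124 CPM in MASH. Chow3 lay just above MASH1 on this scale and below both MASH libraries on library totals (131 against 173 and 149 CPM), and the log2 difference was -1.22 (SE 0.42, edgeR adjusted p = 0.0895). Without Chow3 both transporters passed, Slc10a1 at -1.96 (adjusted p = 0.0132) and Abcb11 at -1.58 (adjusted p = 0.0117). Without Chow1 neither passed, at -1.09 (adjusted p = 0.05004, just over the threshold) and -0.98 (0.129), nor did either without Chow2 (0.1002 and 0.169), without MASH1 (0.295 and 0.314) or without MASH2 (0.265 and 0.441). With DESeq2 they also passed, at adjusted p = 0.0044 for Slc10a1 and 0.0190 for Abcb11.

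Hnf4a, the gene that defined the gate, was at 342, 551 and 616 TMM-scaled CPM in chow and at 256 and 213 in MASH (log2 difference -1.10, edgeR adjusted p = 0.0746). Leaving out nuclei with 2 or more UMIs of another lineage list kept Cyp7b1 at -4.67 (adjusted p = 0.00168) and Slc27a5 at -1.18 (adjusted p = 0.0433). Dropping the Hnf4a requirement as well, an alternative added after the data were seen, gave -4.66 (adjusted p = 0.00244) and -1.19 (adjusted p = 0.0395). Cyp7a1 stood at 1.36 and 1.28 in these gates and again did not pass (adjusted p = 0.114 and 0.131).

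To place the genes along the lobule, nuclei of each library were ranked by a score, the mean scaled level of the pericentral markers Glul, Oat and Slc1a2 minus that of the periportal markers Cyp2f2, Hal and Sds, and split into 3 equal parts, of which the outer ones are called the pericentral and the periportal zone here. Markers outside the score were used as a check: all 5 pericentral genes (Cyp2e1, Cyp1a2, Rgn, Gulo and Axin2) were higher in the pericentral zone in both diets, and of 5 periportal genes 3 were lower there in chow (Cps1, Gls2 and Arg1) and 5 in MASH. Pck1 and Ass1 did not pass in chow. The zones are relative to each library, and the markers differ between the diets, Glul being higher in MASH (log2 difference 1.28, edgeR adjusted p = 0.0179) and Oat and Hal lower (-1.42, adjusted p = 0.0301, and -1.41, adjusted p = 0.0494). From 3.997% to 28.3% of nuclei of a library lay within 0.1 SD of a boundary, and 611 of 870 nuclei in the middle part of MASH2 and 542 of 2335 in the pericentral zone of Chow3 had no UMI of any of the 6 markers. A zone can therefore hold nuclei of several positions.

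In chow, Cyp7a1, Cyp27a1 and Cyp7b1 were higher in the pericentral zone, and Abcb11 and Baat were lower there. This made 5 of 10 members, where 22.1% of 14209 genes passed in either direction and 11.4% as higher. The pericentral level of Cyp7a1 was 129, 111 and 26.7 CPM in Chow1, Chow2 and Chow3 (not TMM-scaled), against 16.2, 40.0 and 4.66 CPM in the periportal zone. The pericentral value was the higher one in every library, by 7.97, 2.79 and 5.74 times, and the log2 difference was 2.11 (SE 0.25, edgeR adjusted p = 0.000167). Cyp27a1 stood at 719, 352 and 557 CPM in the pericentral zone and at 332, 169 and 206 CPM in the periportal zone of the chow libraries, a log2 difference of 1.12 (SE 0.09, edgeR adjusted p = 7.78e-06) with the same direction in all 3. These gradients passed in each of 8 alternatives for both genes.

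The other zonal differences in chow were small. Cyp7b1 was at 344, 456 and 393 CPM in the pericentral zone and at 277, 283 and 339 CPM in the periportal zone, with a log2 difference of 0.32 (SE 0.09, edgeR adjusted p = 0.0207). Abcb11 differed by -0.22 (SE 0.06, edgeR adjusted p = 0.0299) and Baat by -0.25 (SE 0.07, edgeR adjusted p = 0.0302), with the pericentral value lower in 3 of 3 libraries for each. All of these calls were lost without Chow2 (adjusted p from 0.182 to 0.183), without MASH1 (0.0652 to 0.0852) and without MASH2 (0.0632 to 0.0715), in a model that shares 1 estimate of the spread over all libraries, and that of Baat also without Chow3 (0.113). Cyp8b1, Nr0b2, Nr1h4, Slc10a1 and Slc27a5 did not pass, with log2 differences from -0.11 to 0.30. For Cyp8b1 the pericentral zone was the higher one in Chow1 (85.2 against 52.7 CPM) and Chow3 (49.7 against 34.8 CPM) and not in Chow2 (35.4 against 38.1 CPM), and without Chow2 its log2 difference was 0.53 (edgeR adjusted p = 0.0077).

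**Figure D2:**
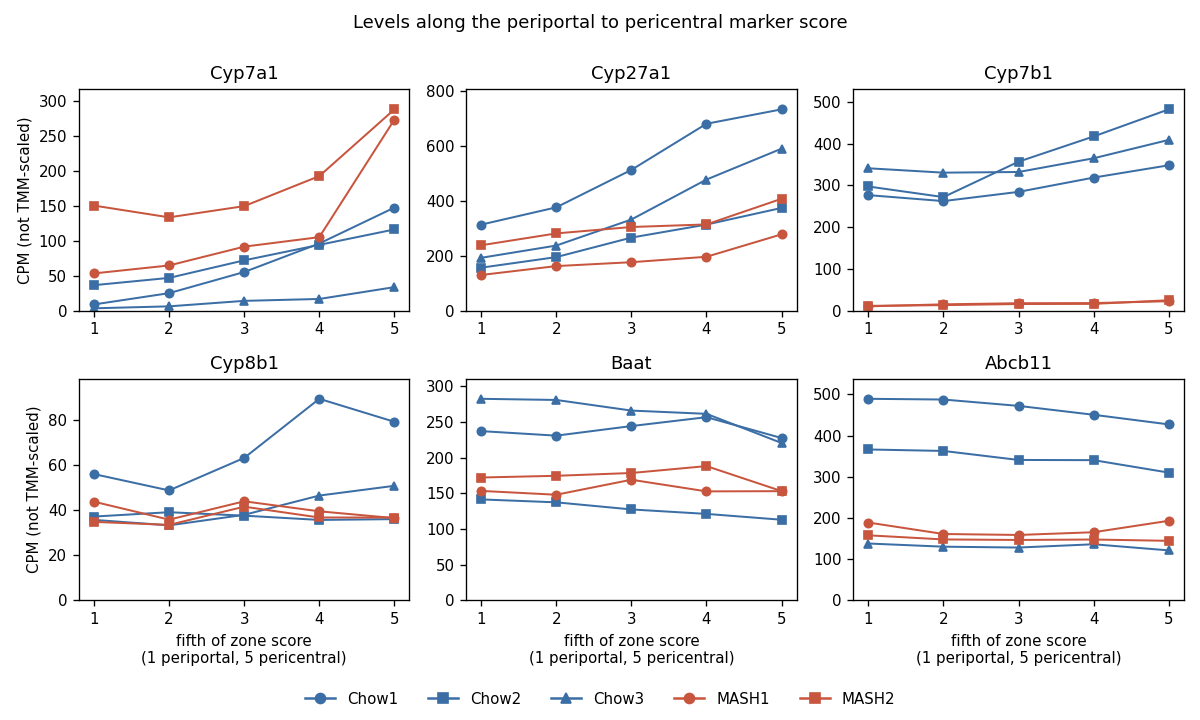
CPM (not TMM-scaled) of 6 bile acid genes in hepatocyte nuclei over 5 equal parts of the zone score, from periportal (1) to pericentral (5), 1 line per library. Cyp7a1 and Cyp27a1 climb towards the pericentral end in the chow libraries, MASH2 starts at 150 CPM of Cyp7a1 at the periportal end against 3.55 to 53.4 CPM in the other libraries, and Cyp7b1 runs low along the whole axis in both MASH libraries.

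In MASH, Cyp7a1 and Cyp27a1 were again higher in the pericentral zone, and no member was lower there. That was 2 of 10 members, with 4.84% of all genes passing in either direction and 2.62% as higher. Cyp7a1 was at 199 and 247 CPM in the pericentral zone of MASH1 and MASH2 and at 60.4 and 139 CPM in the periportal zone, with a log2 difference of 1.22 (SE 0.26, edgeR adjusted p = 0.0238). Without TMM scaling, the periportal zone of MASH2 thus carried more Cyp7a1 than the pericentral zone of any chow library. This order depended on the scaling. With the TMM factors of all hepatocyte nuclei it held against Chow3 but not against Chow1 and Chow2. Cyp27a1 was at 242 and 361 CPM against 142 and 250 CPM, a log2 difference of 0.62 (SE 0.11, edgeR adjusted p = 0.00671). Both calls were lost when either MASH library was left out, where far fewer of all genes passed too. The log2 differences without MASH1 and without MASH2 were then 0.81 and 1.68 for Cyp7a1 and 0.51 and 0.73 for Cyp27a1. Cyp7b1 had a log2 difference of 0.63 at 20.3 and 21.4 CPM against 13.2 and 13.3 CPM, and did not pass (edgeR adjusted p = 0.0702).

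The change of the zonal difference with diet was tested as an interaction in the same model. No member passed with edgeR, against 2.62% of all genes, and 3 members had an unadjusted p under 0.05. The value was -0.89 (SE 0.37, edgeR adjusted p = 0.261) for Cyp7a1 and -0.50 (SE 0.14, edgeR adjusted p = 0.0925) for Cyp27a1, that is, a smaller pericentral excess in MASH, and between -0.26 and 0.35 for the other 8. All genes with an unadjusted p under 0.05 numbered 2277 of 14209. Cyp7a1 passed without Chow2 (-1.51, adjusted p = 0.0240) and Cyp27a1 without Chow1 (-0.55, adjusted p = 0.0354), and both passed when the filter on low counts was dropped.

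Comparing the diets within each zone gave the same directions as in all hepatocyte nuclei. In the pericentral zone Cyp7b1 (log2 difference -4.56, SE 0.36, edgeR adjusted p = 0.00228) and Slc27a5 (-1.17, SE 0.26, edgeR adjusted p = 0.0301) fell, where 12.1% of 13625 genes passed in either direction and 4.01% as lower. In the periportal zone only Cyp7b1 passed (-4.88, SE 0.40, edgeR adjusted p = 0.00294), where 11.8% of 13348 genes passed and 3.81% as lower, and Slc27a5 stood at -1.13 (edgeR adjusted p = 0.0595). Cyp7b1 was not called in the periportal zone without MASH2 (-4.83), where far fewer of all genes passed too. Slc27a5 was not called in the pericentral zone without Chow2 (-1.24, edgeR adjusted p = 0.0567). Nor was Slc27a5 called there without MASH1 (-1.24) or without MASH2 (-1.11), again with far fewer of all genes passing. Cyp7a1 was 1.12 (SE 0.48) above chow in the pericentral and 1.99 (SE 0.71) in the periportal zone. Neither value passed (edgeR adjusted p = 0.152 and 0.104). Among alternatives, Cyp7a1 passed in 1 of 9 in the pericentral zone (edgeR adjusted p = 0.0434). In the periportal zone it passed in 2 of 9 (lowest edgeR adjusted p = 0.0054). None of these passing alternatives left out a library.

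**Figure D3:**
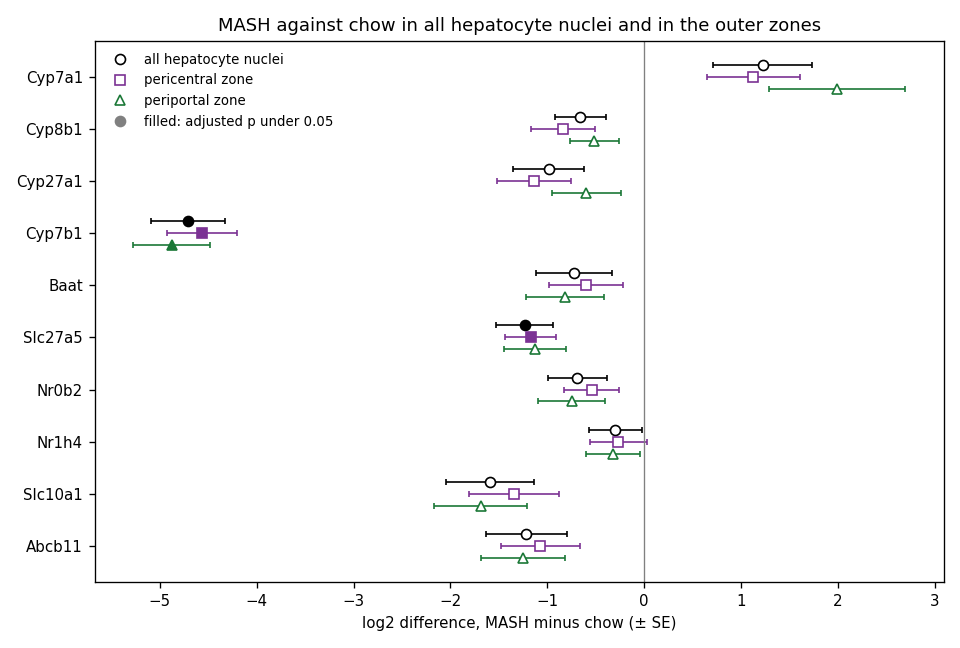
Log2 difference between MASH and chow with its standard error for each gene, in all hepatocyte nuclei (circles), the pericentral zone (squares) and the periportal zone (triangles), with filled symbols for an edgeR adjusted p under 0.05. The filled symbols are Cyp7b1 in all 3 comparisons and Slc27a5 in all nuclei and the pericentral zone.

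Sums per library can hide how many nuclei carry a transcript, so each nucleus was thinned to 1000 UMIs and the share with at least 1 UMI of a gene was taken. Cyp7b1 was found in 22.5%, 27.6% and 29.9% of nuclei of the chow libraries and in 1.68% and 1.26% of those of the MASH libraries. Cyp7a1 was found in 6.04%, 5.87% and 1.61% of chow nuclei and in 8.42% and 13.4% of MASH nuclei. Both genes kept the diets apart, at the smallest p that 3 libraries against 2 allow (exact permutation test, two-sided, p = 0.1, adjusted p = 0.4 over 10 genes). The thinned shares of 6 members did not overlap between the diets, 5 of them lower in MASH, against 48.5% of all genes in either direction and 12.0% as lower. Without thinning this held for 3 members, 2 of them lower, against 53.7% and 7.16% of all genes. Unthinned, the mean shares were 66.1% and 9.34% for Cyp7b1 and 15.2% and 30.3% for Cyp7a1.

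The same measurement in nuclei marked as endothelial, which do not make bile acids, served as a measure of RNA found outside its own cells. Those nuclei had at least 3 UMIs of endothelial markers and none of Hnf4a. Their median depth was 997 to 1345 UMIs, and 33 to 320 of them per library were too shallow to thin. After thinning, Cyp7b1 was found in 16.04% of them in chow and 0.57% in MASH on average, against 26.7% and 1.47% of hepatocyte nuclei. Cyp7a1 was found in 1.28% and 4.66%, against 4.51% and 10.9%, so that the direction between the diets was shared with hepatocyte nuclei. Slc27a5 was found in 18.5%, 13.2% and 8.31% of hepatocyte nuclei and in 10.2%, 17.9% and 16.04% of endothelial-marked nuclei of Chow1, Chow2 and Chow3. Its share was thus above that of endothelial-marked nuclei in Chow1 and below it in Chow2 and Chow3. Slc10a1, at 24.1%, 12.6% and 6.51% against 11.1%, 13.3% and 8.96%, was likewise above the endothelial share in Chow1 alone of the chow libraries. Cyp8b1 was at 6.82%, 4.11% and 4.40% against 6.03%, 5.78% and 1.89%, below the endothelial share in Chow2. Free RNA can make up a larger part of a shallow nucleus, and thinning keeps that part. Hepatocyte nuclei were deeper, at medians of 3871.5 to 5475 UMIs. The endothelial share is therefore not the background expected in them, and a lower hepatocyte share cannot be read as a level below background.

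On the CPM scale the members again differed in their level outside hepatocyte nuclei. In endothelial-marked nuclei Cyp7a1 stood at 39.4% to 53.4% of its hepatocyte level within a library, Cyp27a1 at 45.8% to 52.6% and Nr1h4 at 37.5% to 49.4%. Slc27a5, in contrast, stood at 179% and 176% in Chow2 and Chow3 and at 70.03% in Chow1, and Cyp8b1 at 161%, 119% and 82.9% in Chow2, Chow3 and Chow1. Slc10a1 stood at 68.4%, 87.4% and 164% in Chow1, Chow2 and Chow3 and at 60.5% and 57.0% in MASH1 and MASH2. Cyp7b1 ranged from 36.8% to 78.6% in chow and stood at 96.5% and 51.4% in MASH1 and MASH2. Alb, the serum albumin transcript, was at 125% to 295%. Slc27a5 in endothelial-marked nuclei was at 141, 239 and 144 CPM in chow and at 66.9 and 47.0 CPM in MASH, without overlap, and Cyp7b1 there was at 110, 225 and 280 CPM in chow and at 16.5 and 8.55 CPM in MASH. The part of free RNA in the levels of hepatocyte nuclei was not tested.

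Nr1h4 was also followed in nuclei marked as stellate. In stellate-marked nuclei it was at 339, 150 and 156 CPM in chow and at 172 and 165 CPM in MASH, and in endothelial-marked nuclei at 113, 62.5, 51.1, 77.9 and 56.3 CPM. The stellate value exceeded the endothelial one in 5 of 5 libraries. It was 100% to 149% of the hepatocyte level, whereas Cyp7a1 in the same nuclei was at 20.8% to 47.4%. A level above 100% was not particular to Nr1h4. In Chow2 and Chow3, Cyp8b1 was at 215% and 166% in these nuclei and Slc27a5 at 158% and 134%. Slc10a1 was at 124% in Chow3. These 3 genes were below 100% in the other libraries. These gates rest on markers and are not annotated cell types.

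**Figure D4:**
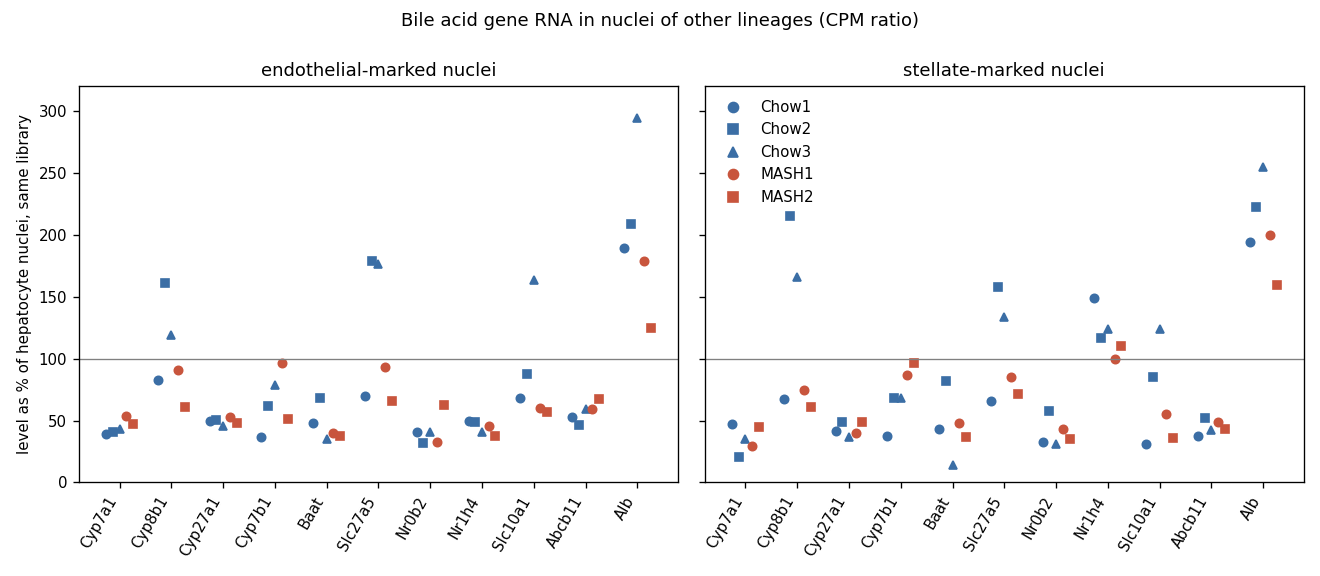
Level of each gene in endothelial-marked (left) and stellate-marked (right) nuclei as a percentage of the hepatocyte nuclei of the same library (CPM ratio, grey line at 100%), 1 point per library, with Alb for comparison. Slc27a5 and Cyp8b1 exceed 100% in Chow2 and Chow3 on both sides, Slc10a1 does so in Chow3, and Nr1h4 reaches 100% to 149% in stellate-marked nuclei.

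The study named a disease-associated hepatocyte population (daHep) from these libraries by genes that include Nrg1, Anxa2, Gdf15 and Sox4. It reported lower expression of hepatic metabolic genes, those of bile acid synthesis among them, in daHep than in other MASH hepatocytes. Its daHep were a cluster of nuclei, whereas nuclei were split here by UMIs of these 4 genes alone. After thinning to 2000 UMIs, 684 nuclei of MASH1 (25.5%) and 549 of MASH2 (21.0%) carried at least 2 UMIs of those 4 genes. Cyp7a1 was at 73.8 CPM in the marked nuclei and 137 CPM in nuclei with none of these UMIs in MASH1, and at 96.5 and 214 CPM in MASH2. The marked nuclei were thus lower in both libraries, by log2 differences of -0.89 and -1.15. Slc10a1 differed by -0.59 and -0.62, Slc27a5 by -0.59 and -0.24, Cyp8b1 by -0.26 and -0.02, Abcb11 by -0.37 and -0.40 and Cyp27a1 by -0.34 and -0.30. Baat was level at 0.03 and 0.07, and Cyp7b1, Nr0b2 and Nr1h4 differed in sign between the libraries. Chow had 65 to 158 marked nuclei per library and its values of Cyp7a1 had no common sign. No test was made, since nuclei of a library are not replicates. The marked nuclei came from the whole gate, without leaving out doublets or nuclei with markers of other lineages. They were not matched by zone either. The part of mixed nuclei or of zone in these differences was not tested.

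Other genes of the pathway were taken from a list of 39, of which 37 had enough counts to test, and 4 passed, where 13.7% of all genes tested passed. The list comprised synthesis (11 tested), receptors and regulators (9), uptake (4), export (10) and detoxification (3), and its median log2 difference was -0.22, against 0.00101 over all genes tested. Among synthesis genes Cyp2c70, which makes the muricholic acids of mice, fell from 206, 957 and 856 TMM-scaled CPM in chow to 59.9 and 68.8 in MASH (log2 difference -3.39, SE 0.68, edgeR adjusted p = 0.0206). Chow1 was far below the other chow libraries and still above both MASH libraries. The other 10 did not pass, and 8 of them had values below 0, among them the early step Hsd3b7 at -0.84 and the peroxisomal oxidase Acox2 at -0.62 (edgeR adjusted p = 0.108 and 0.125).

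None of the 9 receptors and regulators passed. The liver receptor homolog Nr5a2 stood at -0.81 (edgeR adjusted p = 0.105) and the receptor partner Rxra at -0.65 (0.154), while the FGF receptor pair Fgfr4 and Klb, through which the gut signals to repress synthesis, stood at -0.25 and -0.50 (0.501 and 0.312). The xenobiotic receptors Nr1i2 and Nr1i3 had values of -0.02 and 0.22.

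Of 4 uptake genes 1 passed, and their median log2 difference was 0.17. Slco1a1, an organic anion uptake carrier, fell 12.6-fold, from 481, 359 and 263 TMM-scaled CPM in chow to 35.4 and 23.1 in MASH (log2 difference -3.65, SE 0.41, edgeR adjusted p = 0.00413). Both MASH libraries were far below chow, and the gene passed in every alternative run. The related carriers Slco1a4 and Slco1b2 had values of 1.53 and 0.59 and did not pass. Of 10 export genes Abcb1a, a P-glycoprotein, rose 7.22-fold, from 0.77, 1.30 and 1.14 to 8.35 and 7.21 TMM-scaled CPM (log2 difference 2.85, SE 0.39, edgeR adjusted p = 0.00729), from 20 to 37 UMIs per chow library and 140 and 150 per MASH library. Leaving out nuclei with markers of other cell types gave 3.03 (adjusted p = 0.00849). The call on Abcb1a was lost without MASH1 (2.74, adjusted p = 0.0739) and without MASH2 (2.96, adjusted p = 0.0602).

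The remaining export genes did not pass, and 7 of these 9 had values above 0, including the canalicular phospholipid flippase Abcb4 (1.03, edgeR adjusted p = 0.0900), the basolateral pump Abcc4 (1.24, 0.102), the sterol exporter subunit Abcg5 (1.09, 0.119) and the canalicular pump Abcc2 (0.72, 0.210). Counts of Abcc4 were low, at 39, 26 and 39 UMIs in chow and 59 and 49 in MASH. Slc51b, also above 0, rested on 0 to 26 UMIs per library. The median over the export list was 0.56, on the opposite side of 0 from Abcb11. Among detoxification genes Sult2a8, a bile acid sulfotransferase, fell from 962, 296 and 139 to 37.3 and 33.4 TMM-scaled CPM (log2 difference -3.72, SE 0.82, edgeR adjusted p = 0.0271), and Cyp3a11 stood at -1.24 (edgeR adjusted p = 0.0602). Without Chow2 the calls on Sult2a8 and Cyp2c70 were lost (adjusted p = 0.0601 and 0.0576), as they were without MASH1 (0.160 and 0.152) and without MASH2 (0.175 and 0.142). Without Chow1 Sult2a8 was at -2.63 (adjusted p = 0.0171).

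**Figure D5:**
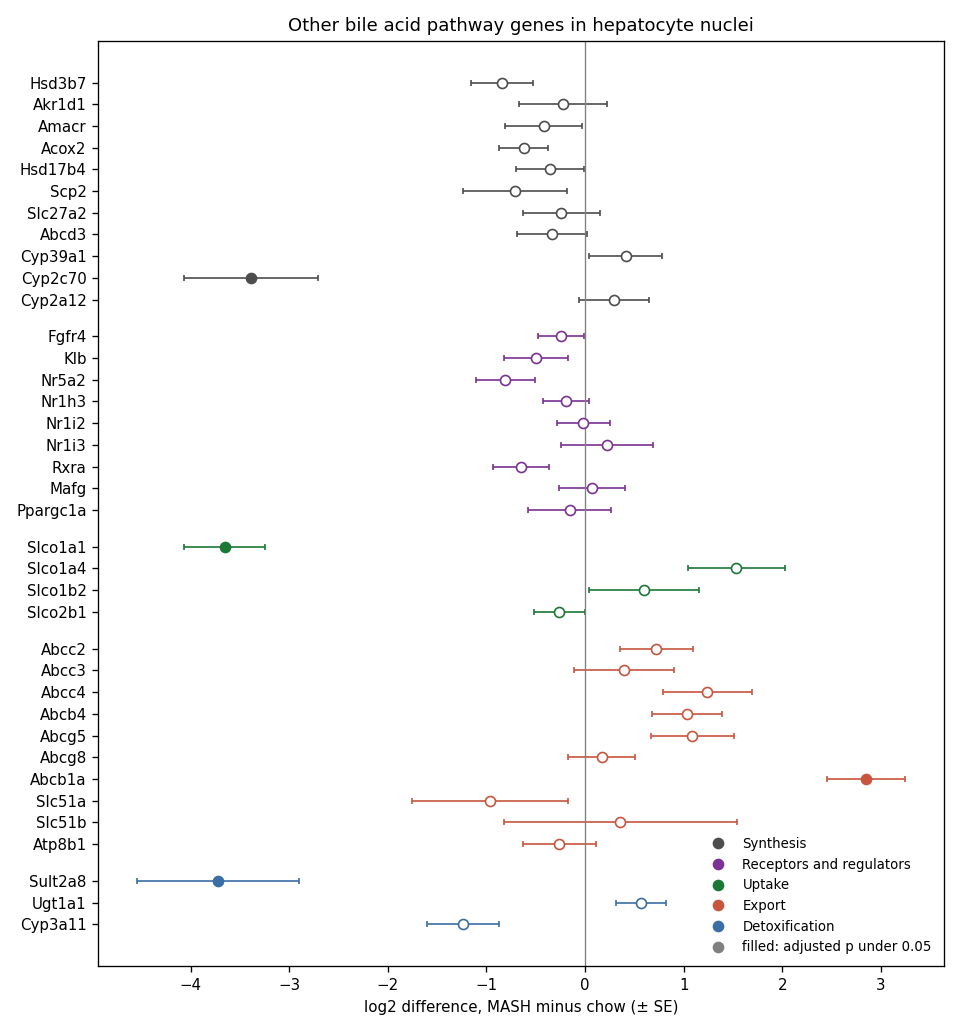
Log2 difference between MASH and chow with its standard error for 37 other bile acid pathway genes in hepatocyte nuclei, grouped by role, with filled symbols for an edgeR adjusted p under 0.05. Slco1a1, Cyp2c70 and Sult2a8 lie below -3, Abcb1a lies at 2.85, and 8 of 10 export genes lie above 0.

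The genes whose pattern was most like that of Cyp7a1 and of Cyp8b1 were sought over 25 sums, 5 parts of the zone score in 5 libraries, among 9020 genes with a mean of at least 10 CPM. For Cyp7a1 they were Fmo2 (Pearson r = 0.977), Slc25a21 (0.962) and Tenm3 (0.957), and for Cyp8b1 they were Gm45051 (0.891), Stx5a (0.886) and Paqr9 (0.883). The 5 sums of a library share its depth and its animals, and these correlations of log2 levels are descriptions without a test.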

How the data were processed

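Nuclei from frozen mouse liver were sorted and made into 10x Genomics 3' libraries. The authors aligned the reads with Cell Ranger 8.0.1 to a GRCm38 transcriptome, leaving out intronic reads, and deposited raw UMI counts per gene and nucleus for the filtered barcodes. No value was normalised and no cell type, batch or doublet call was given. The libraries held 8633 to 12935 barcodes and 35612373 to 49137377 UMIs. The members and lists were chosen with earlier results of these data known, and all members are named. Of the wider pathway list, the genes that passed were to be named, and the others named were chosen after their values were seen.

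Counts were summed per library over the gated nuclei and tested with edgeR 4.0.16 in R 4.3.3 (quasi-likelihood, TMM, filterByExpr, two-sided, 3 residual degrees of freedom in the diet comparison). Genes passing a Benjamini-Hochberg adjusted p under 0.05 are said to rise or fall, and SE is the log2 difference over the square root of F. Zone effects were fitted with the library as a block. TMM factors were 0.756 to 1.20. Doublets stayed in, and an alternative left out the highest Scrublet scores (scanpy 1.11.5) at 0.8% per 1000 barcodes. Counts for the diet comparison were also simulated over 15414 genes, with 200 genes changed and the same spread for every gene. There 27.6% of genes changed by 1 log2 unit and 90.9% of those changed by 2 were recovered. The data differ in both settings, so these shares need not hold for them. Gene positions came from GENCODE M21 (GRCm38). Other-lineage nuclei had at least 500 UMIs, no Hnf4a UMI and at least 3 UMIs of the lineage's markers. Alternatives are listed in the closing section, with DESeq2 1.42.0 among them.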

Additional observations from a re-analysis of the deposited data

How the results depend on the processing

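The number of members called for MASH against chow in all hepatocyte nuclei, 2 as reported, was 1 with library totals, 4 without the low-count filter, 5 with DESeq2 and 5 with Storey's q-values, and 1 to 4 when a library was left out (4 without Chow3, 1 without Chow2, MASH1 or MASH2). All genes called numbered 2117, against 3598 with DESeq2, 4063 with Storey's q-values, 3322 without the filter, 859 without Chow2, 3298 without Chow1, 280 without MASH1 and 216 without MASH2. The split of calls was 1427 higher and 690 lower, against 1706 and 334 with library totals, 1936 and 1662 with DESeq2 and 1977 and 1345 without the filter. For the zones, 5 members called in chow became 2 to 5 with a library left out, and 2 in MASH became 4 with an absolute split on marker UMIs and 0 to 3 with a library left out. The interaction, 0 as reported, gave 2 without the filter and 0 to 1 with a library left out. Within the pericentral zone 2 calls became 6 without the filter and 1 to 4 with a library left out, and within the periportal zone 1 became 5 and 0 to 4. Shares that did not overlap numbered 6, against 3 unthinned, where 48.5% and 53.7% of all genes did not overlap in either direction. Over all genes, calls by zone in MASH went from 688 of 14209 to 862 of 13311 with the absolute split. Without the filter, calls on the interaction went from 372 of 14209 to 876 of 21120. Pericentral diet calls then went from 1653 of 13625 to 2926 of 20122, and periportal ones from 1576 of 13348 to 2866 of 19902. Without a chow library, calls by zone in chow were 2179 to 2627, against 3140. Pericentral diet calls were then 1021 to 2581, and periportal ones 469 to 2762. Calls by zone in MASH were then 666 to 1017, against 688, and calls on the interaction 294 to 604, against 372. Without a MASH library, far fewer of all genes passed by zone in MASH, on the interaction and between the diets within a zone. Member counts from those fits are to be read against that. The cause of these shifts was not tested.

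Directions reversed for 10 values, none of them called. Nr1h4 between the diets was 0.0023 with library totals. Cyp8b1 by zone in MASH was -0.047 when the outer zones were made narrower and -0.15 to 0.20 with a library left out, and the interaction of Slc27a5 was 0.032 with the absolute split and -0.14 to 0.00070 with a library left out. With a library left out, the zone difference in chow ranged from -0.011 to 0.17 for Nr0b2 and from -0.14 to 0.099 for Slc10a1, that in MASH from -0.11 to 0.020 for Nr1h4, and the interaction from -0.013 to 0.13 for Nr1h4 and from -0.021 to 0.39 for Nr0b2. Of the other values tried, 523 kept their direction and call or a similar count, 45 gained a call or calls and 22 lost them.

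The titles number the libraries within each diet and nothing ties the numbers across diets. For that reason the numbers were not taken as pairs. Same-numbered libraries correlated at -0.16 and -0.20 in their deviations from the diet mean. With 2 MASH libraries those deviations mirror each other, and Chow1 with MASH2 and Chow2 with MASH1 gave 0.16 and 0.20. These correlations therefore cannot decide on pairing. With the number as a replicate block, 4 members were called in all hepatocyte nuclei, 4 in the pericentral zone and 5 in the periportal zone. Over all genes this model called 1937 of 15414, 1604 of 13625 and 1681 of 13348. Leaving out a MASH library leaves 1, which is then assumed to vary like chow. In the simulated counts with 2 MASH libraries a log2 difference near 1 was often missed. Sums near 15 CPM, as for Cyp7b1 in MASH, rest on under 300 UMIs.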
